A study of Mus musculus with 14 samples.

Results

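Spatc1, Sec23a, Fbxo15, Znrf4 and Tas1r1 are 5 mouse genes whose RNA was far lower in Setd2KO than in wild-type (WT) round spermatids, while in spermatocytes the same comparison gave a smaller change, of either sign. They were chosen by their FPKM values in all 8 RNA-seq libraries of the study, for a change in round spermatids far more negative than the change in spermatocytes. They are 5 of the 20625 genes in the deposited expression tables and 5 of the 11451 genes expressed highly enough to be tested. Because the RNA values chose the genes, their RNA differences are given below as a description without a test. The H3K36me3 peaks, the neighbouring genes and the other genes of the same pathways were not part of the choice.

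Testes of adult C57BL/6J mice were dissociated, and the cells were stained with Hoechst 33342 and propidium iodide and sorted by fluorescence. The sorts were pachytene and diplotene spermatocytes (PD), cells in the prophase of meiosis, and their haploid products, round spermatids (RS). Each cell type was taken from WT mice and from mice labelled Setd2KO, with 2 RNA-seq libraries and 1 H3K36me3 peak list in each of the 4 groups. The labels do not give the allele, the promoter of any Cre, the cells that lost Setd2, or whether replicate libraries stem from different animals; p-values therefore cover only the spread between libraries, which may be technical.

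Setd2 is the methyltransferase that travels with elongating RNA polymerase II and places H3K36me3 over transcribed gene bodies. Round spermatids switch on a large set of testis genes before their chromatin is packed with transition proteins and protamines, and many transcripts made earlier in meiosis are shut off or run down in the same interval. The 5 genes have different roles. Spatc1 encodes speriolin, a testis protein of the sperm centriole; Sec23a encodes an inner coat subunit of the COPII vesicles that leave the endoplasmic reticulum (ER). Fbxo15 encodes an F-box protein, the substrate-binding part of an SCF ubiquitin ligase. Znrf4 encodes a RING ubiquitin ligase of the ER membrane, and Tas1r1 encodes a subunit of the umami taste receptor.

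For 3 of the 5 genes, the 250 bases before the annotated RefSeq start on build GRCm38.p6 are shown. These starts differ in CpG content and in a germ cell promoter element. No entry was matched for Spatc1, and Fbxo15 was left out of this comparison. The windows are chr12:59012018-59012267 for Sec23a, chr17:56512484-56512733 for Znrf4 and chr4:152038491-152038740 for Tas1r1, all written 5′ to 3′ on the minus strand that carries the genes. Capitals mark the full cAMP response element TGACGTCA, which reads the same on both strands.
Sec23a: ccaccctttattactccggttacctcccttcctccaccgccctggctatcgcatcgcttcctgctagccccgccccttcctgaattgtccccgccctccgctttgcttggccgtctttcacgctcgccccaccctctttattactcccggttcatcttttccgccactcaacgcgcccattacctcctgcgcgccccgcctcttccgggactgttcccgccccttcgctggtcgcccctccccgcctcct
Znrf4: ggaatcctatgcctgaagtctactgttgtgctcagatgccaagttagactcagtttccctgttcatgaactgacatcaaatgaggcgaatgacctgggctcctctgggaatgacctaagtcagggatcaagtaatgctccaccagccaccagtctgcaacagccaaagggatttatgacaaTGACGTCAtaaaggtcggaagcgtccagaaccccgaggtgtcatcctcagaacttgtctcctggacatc
Tas1r1: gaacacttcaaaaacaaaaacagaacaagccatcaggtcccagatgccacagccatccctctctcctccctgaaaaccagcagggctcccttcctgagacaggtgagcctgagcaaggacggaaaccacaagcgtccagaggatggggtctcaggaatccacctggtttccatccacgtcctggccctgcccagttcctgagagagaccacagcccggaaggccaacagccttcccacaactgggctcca
The Sec23a window had a GC content of 64% and 22 CpG dinucleotides, against a median of 52.4% and 6 over 32851 RefSeq windows of the same length. The Znrf4 window had 49.6% GC and 5 CpG, and the Tas1r1 window had 57.2% GC and 4 CpG. The element in the Znrf4 window lay 69 to 62 bases upstream of the start, and 1.55% of the 32851 windows held it. It is the sequence bound by CREM, an activator of genes in haploid germ cells. Its shorter form TGACG, or CGTCA on the other strand, was in 17.8% of windows, and neither the Sec23a nor the Tas1r1 window held it; inside Znrf4 both short matches overlap the full element. A match to these letters is not a measured binding site.

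RNA is given in FPKM, a read density scaled to transcript length (per kilobase) and to library size (per megaread), and log2 changes are differences of log2(FPKM + 1), which understate the change of low genes. In RS, both Setd2KO libraries lay below both WT libraries for all 5 genes, an ordering found for 37.7% of the tested genes; the choice of the genes fixed that count. In the fit over all libraries, 21.8% of tested genes were called lower in Setd2KO RS and 20.9% higher. In PD the 5 genes divided. Spatc1 and Tas1r1 had both Setd2KO libraries below both WT libraries, as 14.5% of tested genes did, Sec23a and Fbxo15 had both above, as 56.6% did, and the groups overlapped for Znrf4. The size of the RS difference varied as well: mean RS Setd2KO levels were 7.14% of RS WT for Spatc1, 7.69% for Tas1r1, 10.4% for Fbxo15, 16.3% for Sec23a and 20.7% for Znrf4. In a bulk sample, fewer cells that express a gene and less RNA per cell cannot be told apart.

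Libraries ranged from 50.8 to 84.9 megareads, worked back from the FPKM steps, at which 74.6% to 86.9% of short genes under 200 reads gave whole reads to within 0.01. Setd2 itself read 21.2 and 19.1 FPKM in PD WT, 21.0 and 21.4 FPKM in PD Setd2KO, 5.24 and 5.58 FPKM in RS WT, and 12.1 and 8.67 FPKM in RS Setd2KO. A whole-gene FPKM does not show the loss of part of a gene, so it does not check the labels. Markers of elongating and condensing spermatids summed to 6469 to 6552 FPKM in RS WT and 2455 to 2746 FPKM in RS Setd2KO. Of these 17, 14 were called lower in RS, beside 21.8% of all tested genes, and none was at 0. Markers of round spermatids summed to 1618 to 1733 and 1138 to 1510 FPKM, with 3 of 14 lower, near that share. Those of pachytene and diplotene spermatocytes summed to 398 to 404 and 545 to 587 FPKM. Of these 13, 5 were called higher and 2 lower, beside 20.9% and 21.8% of all tested genes. In PD WT the spermatocyte markers summed to 923 to 1022 FPKM and the round spermatid markers to 106 to 132 FPKM. In PD Setd2KO they summed to 1090 to 1155 and 170 to 240 FPKM. Of the 14 round spermatid markers, 12 were called higher than in PD WT and 1 lower. Of the 17 elongating and condensing spermatid markers, 7 were called higher in PD and 3 lower. Their sum was 476 to 587 FPKM in PD WT and 358 to 466 FPKM in PD Setd2KO. Over all tested genes, 29.7% were called higher in PD and 6.29% lower. The part of these marker shifts in the RS and PD values of the 5 genes was not tested.

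**Figure D1:**
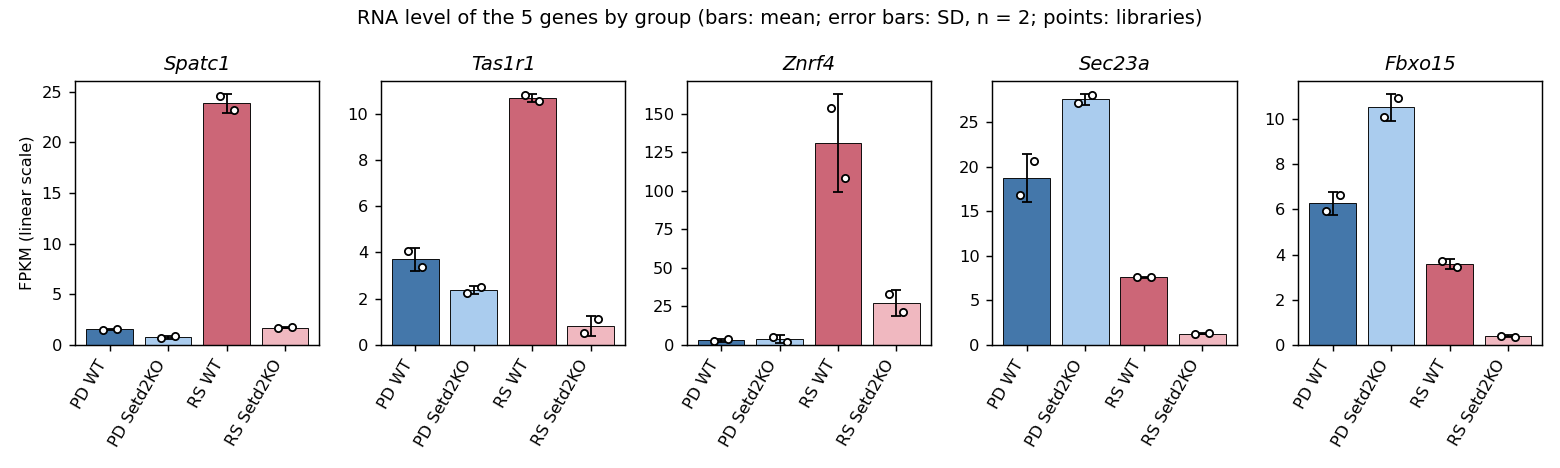
FPKM (linear axis from 0) of the 5 genes in the 4 groups; bars are means, error bars SD (n = 2) and points single libraries. In RS the Setd2KO points lie below the WT points for every gene, whereas in PD Sec23a and Fbxo15 have Setd2KO points above WT, Spatc1 and Tas1r1 have them below, and those of Znrf4 overlap WT.

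Spatc1 had the most negative RS change of all 11451 tested genes and also ranked 1 for the difference between the RS and PD changes. In PD it read 1.50 and 1.54 FPKM in WT and 0.624 and 0.853 FPKM in Setd2KO. In RS it read 24.5 and 23.1 FPKM in WT and 1.69 and 1.72 FPKM in Setd2KO. The WT libraries of RS thus stood far above the other 6, and RS Setd2KO sat just above PD WT. Mean levels differed 14.0-fold in RS and 2.06-fold in PD, both with WT higher. On the log2(FPKM + 1) scale the changes were -3.20 in RS and -0.54 in PD, a difference of -2.66 with a standard error of 0.15. From PD to RS, Spatc1 was 15.7-fold higher in WT and 2.31-fold higher in Setd2KO.

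In FPKM, Tas1r1 was lower than Spatc1 in RS and higher in PD. Its PD values were 4.05 and 3.36 FPKM in WT and 2.24 and 2.48 FPKM in Setd2KO. Its RS values were 10.8 and 10.6 FPKM in WT and 0.507 and 1.14 FPKM in Setd2KO. The Setd2KO libraries of RS differed from each other by more than those of Spatc1 did, and the ratio of a WT to a Setd2KO library ran from 9.29 to 21.3. The mean ratio was 13.0 in RS and 1.57 in PD. The step from PD to RS changed direction: in WT the RS level was 2.89-fold above PD, and in Setd2KO the PD level was 2.87-fold above RS. The log2 changes were -2.70 in RS and -0.48 in PD, and their difference of -2.22 (SE 0.22) ranked 17.

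Znrf4 was the most abundant of the 5 in RS WT, where its mean lay above that of 97.2% of tested genes. Its 2 RS WT libraries read 154 and 108 FPKM, and its RS Setd2KO libraries read 33.1 and 21.1 FPKM. In PD it read 2.17 and 3.50 FPKM in WT and 5.30 and 1.75 FPKM in Setd2KO, so the lowest and the highest PD values were both Setd2KO. The log2 changes were -2.24 in RS and 0.14 in PD, and the standard error of their difference, -2.38 ± 0.49 (SE), was the largest of the 5 genes. The mean ratio in RS was 4.83, with WT higher, and single-library ratios ran from 3.28 to 7.27. From PD to RS the gene was 46.2-fold higher in WT and 7.69-fold higher in Setd2KO, which left RS Setd2KO well above every PD library, unlike Tas1r1.

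The PD levels of Znrf4, as a share of RS, can be set beside those of genes high in round spermatids. The PD Setd2KO libraries held Znrf4 at 19.6% and 6.45% of its RS Setd2KO mean, itself lower than its RS WT mean. In FPKM, PD Setd2KO replicate 2 (1.75) lay below both PD WT libraries (2.17 and 3.50). A set of 517 genes, Znrf4 among them, had at least 20 FPKM in RS WT and was at least 20-fold lower in PD WT. The median level of these genes in the PD Setd2KO libraries was 13.1% and 7.67% of RS. In PD WT it was 1.92% and 2.77%, where the choice of those genes keeps the share low. Their part in the Znrf4 values was not tested.

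Sec23a and Fbxo15 had the opposite course, with more RNA in spermatocytes than in spermatids. Sec23a read 16.8 and 20.7 FPKM in PD WT and 27.1 and 28.0 FPKM in PD Setd2KO. In RS it read 7.64 and 7.57 FPKM in WT and 1.19 and 1.28 FPKM in Setd2KO. PD Setd2KO was thus the highest group and RS Setd2KO the lowest, with no overlap between any of the 4 groups. The mean was 1.47-fold higher in Setd2KO in PD and 6.15-fold lower in RS. PD exceeded RS 2.46-fold in WT and 22.3-fold in Setd2KO. The log2 changes were 0.54 in PD and -1.94 in RS, a difference of -2.48 with a standard error of 0.18.

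Fbxo15 kept the same order of groups. It read 5.92 and 6.63 FPKM in PD WT and 10.1 and 11.0 FPKM in PD Setd2KO. In RS it read 3.73 and 3.44 FPKM in WT and 0.402 and 0.344 FPKM in Setd2KO, which correspond to 37 and 36 reads at the shortest transcript length that gave whole reads in all libraries. The 4 groups did not overlap. Means were 1.68-fold higher in Setd2KO in PD and 9.60-fold lower in RS, and PD exceeded RS 1.75-fold in WT and 28.3-fold in Setd2KO. The log2 changes were 0.67 in PD and -1.74 in RS, a difference of -2.40 (SE 0.16).

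The RS Setd2KO levels of Sec23a and Fbxo15, taken as a share of PD, can be set beside those of genes high in spermatocytes. RS Setd2KO held Sec23a at 4.49% and Fbxo15 at 3.54% of their PD Setd2KO means. For 24 genes of at least 20 FPKM that were at least 20-fold higher in PD WT than RS WT, the median level in the 2 RS Setd2KO libraries was 5.35% and 4.68% of PD Setd2KO, and 3.66% and 4.08% of PD WT in the RS WT libraries used to choose them. Whether RNA of spermatocytes in the RS sort has a part in the values of Sec23a and Fbxo15 was not tested.

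**Figure D2:**
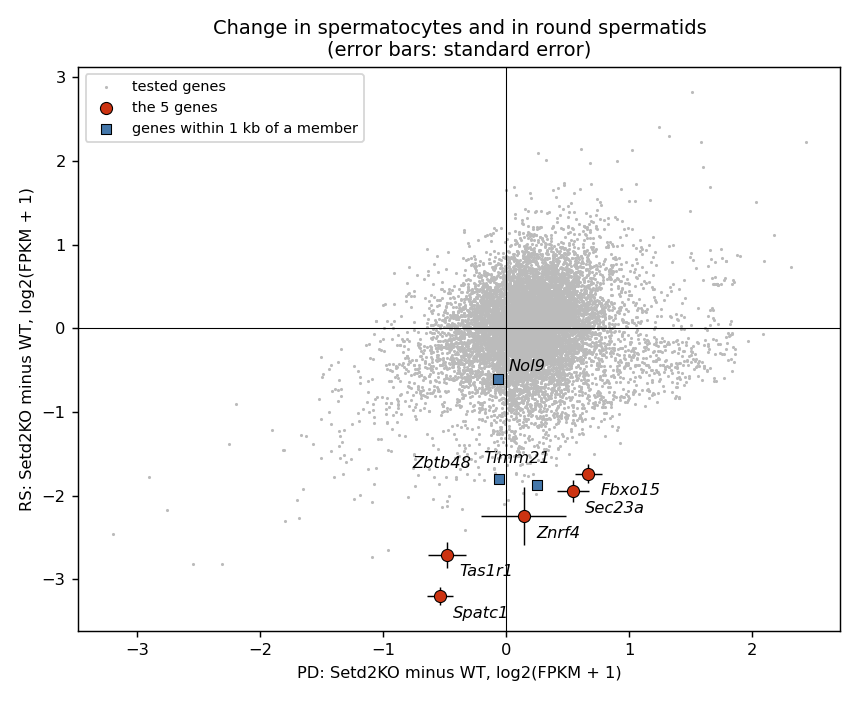
Setd2KO minus WT in PD (x axis) and in RS (y axis) on the log2(FPKM + 1) scale for all tested genes (grey), the 5 genes (red, bars 1 SE) and the genes lying within 1 kb of one of them (blue). The 5 genes lie between -3.20 and -1.74 on the RS axis and between -0.54 and 0.67 on the PD axis.

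Ranks for the difference were 1 for Spatc1, 2 for Sec23a, 3 for Fbxo15, 4 for Znrf4 and 17 for Tas1r1. For the RS change alone they were 1, 29, 52, 11 and 5 in the same order. For the PD change, counted from the most negative of 11451, they were 388, 9771, 10379, 4925 and 468, so Spatc1 and Tas1r1 were also among the lower genes in PD, and Sec23a and Fbxo15 among the higher. The median log2 change over all tested genes was 0.015 in RS, 0.19 in PD and -0.16 for the difference. After these medians were subtracted, PD changes were -0.73 for Spatc1, 0.35 for Sec23a, 0.47 for Fbxo15, -0.052 for Znrf4 and -0.67 for Tas1r1. In PD 6.29% of tested genes were called lower and 29.7% higher, a share of 82.6% higher among called genes that became 66.3% with upper-quartile scaling and 45.8% with quantile normalization. For the difference, 27.3% were called lower and 7.76% higher. The share lower among called genes was 77.9%, 58.5% with upper-quartile scaling and 47.1% with quantile normalization. The PD signs of the 5 genes held under both scalings except that of Znrf4, which was -0.092 after quantile normalization.

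The WT course of a gene went with a different background. Of 3237 tested genes at least 2-fold higher in RS WT than PD WT, as Spatc1, Znrf4 and Tas1r1 were, 39.6% were called lower in Setd2KO RS, with a median log2 change of -0.27. Of 3723 genes at least 2-fold higher in PD WT, the class of Sec23a, 8.68% were called lower and the median was 0.13. Of 4491 genes within 2-fold, the class of Fbxo15, 19.9% were called lower and the median was 0.031. These classes use the RS WT libraries that also enter the change.

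H3K36me3 cover, the share of the gene interval (build mm9) under a called peak, was measured apart from RNA. In WT, 4 of the 5 genes carried a peak in both cell types, and no Setd2KO peak lay over any of them. Over 11083 tested autosomal genes, 75.6% carried a peak in PD WT and 73.4% in RS WT, but 2.09% in PD Setd2KO and 5.55% in RS Setd2KO. The absence over these genes is therefore what most genes showed. The nearest Setd2KO peak to any of the 5 lay 274553 bases away, beside Fbxo15. With 1 list per group there is no replicate check.

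Sec23a (chr12:60059371-60113004, minus strand) was covered nearly from end to end. Cover was 94.8% in PD WT in 10 peaks and 98.7% in RS WT in 4 peaks, more than in 79.4% and 87.8% of the autosomal genes. Tas1r1 (chr4:151402023-151412599, minus strand) was covered over 71.3% in PD WT and 74.8% in RS WT, and Fbxo15 (chr18:85104417-85150784, plus strand) over 65.7% and 67.4%. Medians over the autosomal genes were 67.7% in PD WT and 60.8% in RS WT. Neither Tas1r1 nor Fbxo15 had cover in the first 2 of 10 equal bins from its start, while bin 1 of Sec23a had 92% in PD WT and 94.7% in RS WT.

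Spatc1 and Znrf4, which had the largest WT rise from PD to RS of the 5, were the ones with little or no cover. Spatc1 (chr15:76098519-76123002, plus strand) had 6.57% in PD WT and 5.73% in RS WT, all in bin 10, at its 3′ end. Its PD WT peak, with an authors' score of 1499, ran on for 7392 bases past the gene's end into Smpd5, a sphingomyelinase gene that starts 1861 bases downstream. Its RS WT peak had a score of 54.2 and ended 250 bases before the end of the gene. Lists hold no peak under a score of 50, so this peak is close to their lower limit, and at a minimum score of 60 the RS WT cover of Spatc1 was 0%.

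Znrf4 (chr17:56650671-56651906, minus strand) spans 1236 bases, the whole length of its transcript, and had no peak in any list. The nearest WT peaks were 20692 bases away in PD and 37243 bases away in RS. Its level in RS WT was the highest of the 5 genes, so high RNA and no called peak occurred together there. Among RS genes called lower in Setd2KO, 65.1% had an RS WT peak (median cover 34.8%), against 68.6% of genes called higher (52.9%) and 78.2% of genes not called (69.5%).

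**Figure D3:**
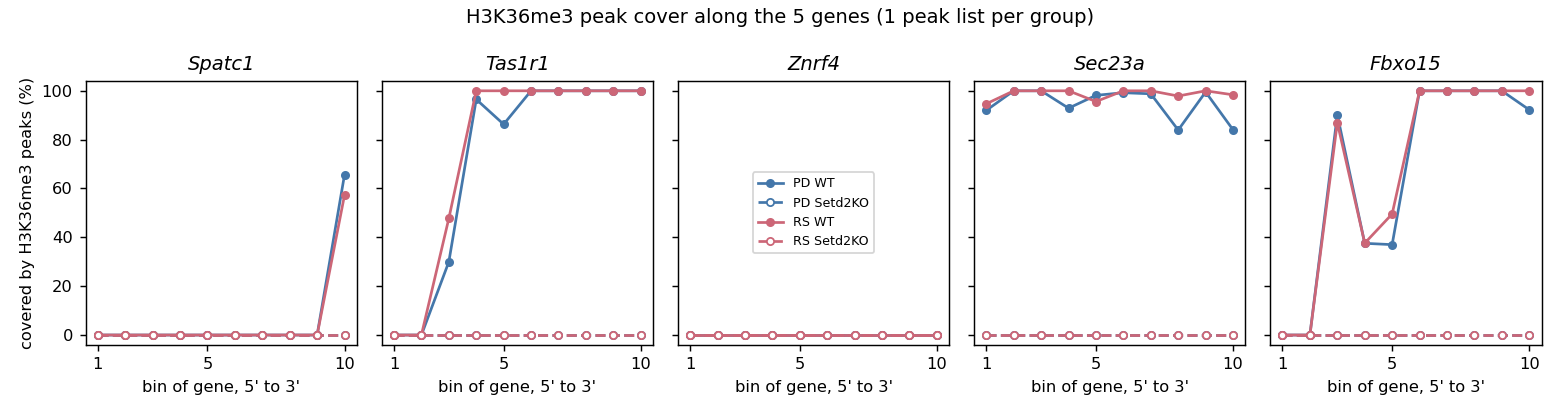
Percent of each of 10 equal bins of the gene, from 5′ to 3′, under an H3K36me3 peak in PD WT and RS WT for the 5 genes; no Setd2KO list held a peak over them. Sec23a is covered throughout, Fbxo15 and Tas1r1 from bin 3 on, Spatc1 in bin 10, and Znrf4 nowhere.

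Genes around the 5 were examined because position played no part in the choice. Of 31 other genes within 100 kb, 28 were tested. In RS, 15 of the 28 (53.6%) were called lower in Setd2KO by limma with Benjamini-Hochberg adjustment over all genes and 2 (7.14%) higher, against 21.8% and 20.9% of all tested genes. In PD, 6 (21.4%) were called lower and 3 (10.7%) higher, against 6.29% and 29.7%. Neighbours share loci, so they are not independent draws, and 8 of the 15 lay around Spatc1, where 13 were tested. Around Tas1r1 4 of 6 were lower, around Znrf4 2 of 4, around Fbxo15 1 of 2 and around Sec23a 0 of 3.

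The 3 tested genes within 1 kb of one of the 5, or overlapping it, were all called lower in RS and none was called in PD. Timm21, a subunit gene of the mitochondrial inner-membrane import machinery, lies wholly inside Fbxo15 on the opposite strand over 4231 bases. Timm21 read 7.68 and 6.34 FPKM in RS WT and 1.06 and 1.30 FPKM in RS Setd2KO. Those groups did not overlap, and the means differed 5.93-fold. Its log2 change was -1.87 (SE 0.16, limma adjusted p = 1.19e-05) in RS and 0.25 (adjusted p = 0.251) in PD. The labels name a directional kit but not whether counting used strand, so reads of Fbxo15 and Timm21 might not be separable. The 5′-most WT peak over Fbxo15 covered 79.9% of Timm21 in PD and 80.0% in RS.

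Zbtb48, which encodes a telomere-binding zinc finger protein, starts 242 bases past the 3′ end of Tas1r1 on the same strand. Zbtb48 read 5.31 and 4.04 FPKM in RS WT and 0.565 and 0.681 FPKM in RS Setd2KO, a 7.50-fold difference of means without overlap. Its log2 change was -1.80 (SE 0.15, limma adjusted p = 8.3e-06) in RS and -0.063 (adjusted p = 0.764) in PD. Nol9, a ribosomal RNA processing kinase gene 830 bases upstream on the other strand, read 0.761 and 0.925 FPKM in RS WT and 0.211 and 0.219 FPKM in RS Setd2KO. Its log2 change was -0.60 (limma adjusted p = 0.000447) in RS and -0.068 (adjusted p = 0.581) in PD. All 3 calls held without any 1 library. Klhl21, 10236 bases downstream of Tas1r1, was not called in RS (0.15, adjusted p = 0.397) but lower in PD (-0.86, adjusted p = 0.0012).

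Around Spatc1 the neighbours went several ways. Tssk5, a testis kinase gene 79385 bases away, changed by -1.75 in RS (limma adjusted p = 0.000105) and 0.14 in PD (adjusted p = 0.625). Oplah, for 5-oxoprolinase, changed by -1.03 in RS (adjusted p = 0.000263) and -0.10 in PD (adjusted p = 0.61), and Exosc4, an RNA exosome subunit gene, by -0.64 (adjusted p = 0.0024) and 0.23 (adjusted p = 0.183). Hgh1, Grina and Parp10 were lower in both cell types, with log2 changes of -1.51, -1.06 and -0.71 in RS and -1.32, -1.07 and -0.69 in PD. Smpd5, just beyond the end of Spatc1, was higher in RS by 0.49 (limma adjusted p = 0.0172), a call lost without RS WT replicate 1 (adjusted p = 0.134) or without either RS Setd2KO library (0.106 and 0.0773).

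Gpaa1, Sharpin, Phf13, Espn and Safb were called lower in RS, with log2 changes of -0.40, -0.49, -0.55, -0.33 and -0.65, and each call was lost without certain libraries. For Gpaa1 these were RS WT replicates 1 and 2 and RS Setd2KO replicate 1 (adjusted p = 0.123, 0.0511 and 0.1), and for Sharpin RS WT replicate 1 and RS Setd2KO replicate 1 (0.0892 and 0.0793). For Phf13 they were RS WT replicate 2 and RS Setd2KO replicate 2 (0.0674 and 0.0926), and for Espn both RS WT libraries and RS Setd2KO replicate 2 (0.0602, 0.0777 and 0.0785). For Safb they were RS WT replicate 2 and both RS Setd2KO libraries (0.128, 0.0631 and 0.0792). Phf13 and Espn were called lower in PD too, with log2 changes of -0.75 and -0.34 (limma adjusted p = 0.00288 and 0.0164). Gpaa1, Sharpin and Safb were not called in PD. Cyb5a, 55161 bases upstream of Fbxo15, was higher in RS by 0.65 (limma adjusted p = 0.00187). Gemin2, whose interval lies 1373 bases upstream of Sec23a on the other strand, changed by -0.22 in RS (adjusted p = 0.117, or 0.0252 after quantile normalization) and 0.34 in PD (adjusted p = 0.0302), and neither Trappc6b nor Pnn near Sec23a was called in RS (adjusted p = 0.222 and 0.86). Plec, Cyc1, Maf1, Mroh1, Safb2, Ptprs and Dnajc11 were not called in RS either, and Thap3, Plekhg5 and Tnfrsf25 were too low to test.

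**Figure D4:**
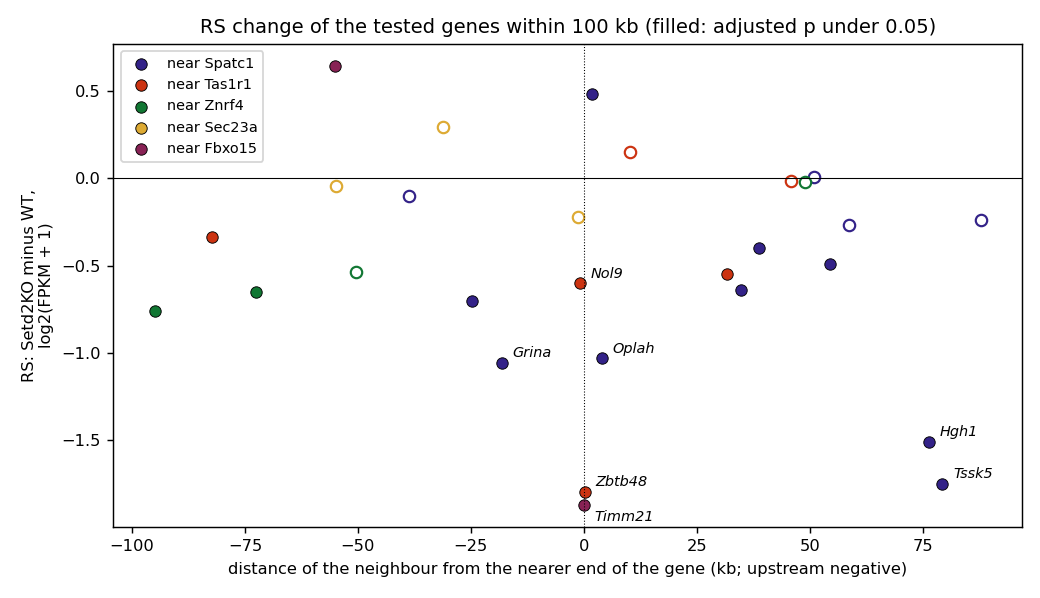
RS change, Setd2KO minus WT on the log2(FPKM + 1) scale, of the tested genes within 100 kb of each of the 5 genes, against distance from the gene in kb, with genes of adjusted p under 0.05 as filled points. Timm21 and Zbtb48, at -1.87 and -1.80, lie at or next to the gene itself, and the 3 neighbours of Sec23a lie between -0.22 and 0.29.

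Other genes of the pathways were called lower in RS about as often as tested genes at large. Of 122 tested genes in the 5 lists, 28 (23.0%) were called lower and 19 (15.6%) higher in RS, near the 21.8% and 20.9% of all tested genes. In PD 5 (4.10%) were lower and 32 (26.2%) higher, beside 6.29% and 29.7% of all tested genes. The RS count of lower genes was 17 without RS Setd2KO replicate 1 and 19 without either RS WT library, and that of higher genes fell to 6 without RS WT replicate 1 or RS Setd2KO replicate 1.

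In the COPII list, 23 tested genes of ER exit beside Sec23a, 2 were lower and 2 higher in RS, with a median log2 change of 0.14, and 1 was lower and 2 higher in PD. Sec23b, the paralog of Sec23a, read 9.08 and 9.38 FPKM in RS WT and 10.8 and 10.5 FPKM in RS Setd2KO, a log2 change of 0.19 that was not called (limma adjusted p = 0.197). Its 95% confidence interval in the limma fit, -0.060 to 0.45, does not hold a change of the size described for Sec23a. The called genes were the ER exit factor Mia2 (-0.82), the SNARE Bet1 (-0.81), Tfg (0.52) and the cargo receptor Mcfd2 (0.37), and each of these calls depended on single libraries. That of Mia2 was lost without either RS WT library or RS Setd2KO replicate 1 (adjusted p = 0.071, 0.0601 and 0.13), and that of Bet1 without RS WT replicate 1 or RS Setd2KO replicate 1 (0.0535 and 0.0549). That of Tfg was lost without RS WT replicate 1 or RS Setd2KO replicate 2 (0.066 and 0.0535), and that of Mcfd2 without any 1 of the 4 RS libraries or either PD Setd2KO library (0.0528 to 0.298).

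In the SCF list of cullin core and F-box genes, 40 tested beside Fbxo15, 8 were lower and 8 higher in RS with a median of 0.029, and 1 was lower and 16 higher in PD. Skp2, the F-box protein that targets cell cycle inhibitors, read 10.4 and 9.63 FPKM in RS WT and 3.91 and 4.13 FPKM in RS Setd2KO (log2 change -1.13, limma adjusted p = 1.78e-05). Fbxo39 changed by -1.08 and Fbxo24 by -0.79. Fbxo11 went the other way, from 1.18 and 1.13 FPKM to 3.54 and 5.04 FPKM (1.28, adjusted p = 4.76e-05), and was also higher in PD by 0.94 (adjusted p = 0.000863).

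In the list of membrane RING ligases and ER-associated degradation, 26 tested beside Znrf4, 8 were lower and 5 higher in RS, with a median of -0.027, and 1 was lower and 6 higher in PD. Calr3, the testis calreticulin, read 34.4 and 31.1 FPKM in RS WT and 11.5 and 12.1 FPKM in RS Setd2KO (log2 change -1.40, limma adjusted p = 2.47e-05). The ER ligase Rnf5 changed by -1.04, and Ube2g2, a ubiquitin-conjugating enzyme of ER-associated degradation, by -0.77.

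Of 17 other taste genes, 5 passed the expression filter, and of these 3 were called lower in RS and 1 was called each way in PD. Tas1r3, which pairs with Tas1r1 in the umami receptor, read 0.795 and 0.706 FPKM in RS WT and 0.407 and 0.362 FPKM in RS Setd2KO, a log2 change of -0.34 (limma adjusted p = 0.0203) that was lost without any 1 of the 4 RS libraries (0.0536 to 0.126). It was lower in PD too (-0.56, adjusted p = 0.00206). Tas1r2, the sweet receptor subunit, did not exceed 0.00646 FPKM in any library. The calcium channel gene Itpr3 changed by -0.51 (adjusted p = 0.000692) and Plcb2 by -0.35 (0.0282), the latter lost without RS WT replicate 1 (0.141), RS WT replicate 2 (0.101) or RS Setd2KO replicate 1 (0.167).

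In the list of the sperm centriole and head-tail connecting piece, 28 tested beside Spatc1, 7 were lower and 4 higher in RS, with a median of -0.14, and 1 was lower and 7 higher in PD. Spatc1l, the family relative of Spatc1, read 112 and 108 FPKM in RS WT and 64.2 and 90.7 FPKM in RS Setd2KO, a log2 change of -0.52 that was not called (limma adjusted p = 0.125) but was with only the 2 RS groups in the fit (0.0354). In PD it rose by 1.28 (adjusted p = 0.00365). The centrosomal gene Wdr90 changed by -0.92 in RS, and Poc5, a centriole elongation gene, by 0.91. Odf1 (-0.80), for an outer dense fibre protein, and Oaz3 (-0.90), for the antizyme of spermatids, were called lower, but without RS Setd2KO replicate 1 their adjusted p was 0.122 and 0.0742, and that of Odf1 was 0.0595 and 0.0684 without RS WT replicate 1 or 2. Both are also among the elongating spermatid markers given above, whose part in the change was not tested.

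The genes with the most similar pattern over the 8 libraries, after centring, were found among 7644 genes reaching 5 FPKM. The measure is the root mean square difference in log2(FPKM + 1), and clone-named genes are not printed. Fbxo15 was the nearest gene to Sec23a (0.30), and Sec23a ranked 2 for Fbxo15 behind the RNA helicase gene Ddx10 (0.30). Hmces was nearest to Tas1r1 (0.27), followed by the peroxisomal ATPase gene Pex6 (0.34) and Gpn1 (0.38). Tnp2 (0.36), Actg2 (0.39) and Tnp1 (0.39) were nearest to Znrf4; Tnp1 and Tnp2 encode the transition proteins. Sag (0.45), Noxred1 (0.48) and Lrrc57 (0.53) were the named genes nearest to Spatc1. Sec23a was further followed by Fam181a (0.36) and Snx4 (0.37), and Fbxo15 by the proteasome gene Psmc6 (0.30).

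Hmces was the closest match to any of the 5. It is a gene that guards abasic sites in DNA, and its mean was 5.23 FPKM for WT round spermatids and 0.401 FPKM for Setd2KO ones, with an RS WT peak over 91.1% of it. The likeness is a description, since it used the contrasts that chose the genes.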

How the data were processed

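RNA-seq and H3K36me3 ChIP-seq of sorted spermatocytes and round spermatids were analysed from the deposited files. The authors gave expression as FPKM per gene and library, made with CASAVA, TopHat2, Cufflinks and Cuffdiff on mm9 per the submitters' processing notes. H3K36me3 peaks were deposited as 1 list per group with a score for each peak; the notes name CASAVA, Bowtie and bedtools. Input libraries were not analysed here. Versions, the counting strand and any use of spike-in chromatin are not given in the sources used here.

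The row without a gene name (0.00204% to 0.00366% of FPKM) was left out. Genes were tested where the mean of any of the 4 groups reached 1 FPKM. log2(FPKM + 1) was fitted in limma 3.58.1 (R 4.3.3) with an intensity trend and 1 mean per group over 8 libraries, with 4 residual and 6.93 prior degrees of freedom. P-values were adjusted by Benjamini-Hochberg over 11451 genes, and genes under 0.05 were called. On data simulated for this fit over 11451 genes, 100% of genes given an RS log2 change of 1 or 2 in either direction were recovered. There were 11 false calls among the genes given no change. For the difference, 92% were recovered at -1 and 100% at -2, 1 and 2, with 6 false calls. Changes were given only to genes with an RS WT level above those of Fbxo15, Timm21, Zbtb48 and Nol9, so recovery of lower genes was not measured. Noise was independent between libraries and followed the average spread at a gene's level. Spread particular to a gene and shifts of a whole library were left out, so real data may give more false calls. Reads were worked back as whole multiples of FPKM steps. Peaks were counted over a gene at an overlap of at least 1 base, with Python 3.11.15.

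The 5 genes, the pathway and marker lists and the tests were chosen with earlier results of these data known. Named genes were the 5 members, Setd2, up to 4 genes per pathway list with the largest called RS change and no overlap between genotypes, the closest family relatives, the 3 most alike genes per member and all genes within 100 kb. Mia3 and Rhox5 had no match, and 1 gene that the rule names is not reported here. Alternatives were a pseudocount of 0.1, no filter, upper-quartile scaling, quantile normalization, the 2 groups compared alone, the replicate block, each library left out, a peak score of at least 60, a cover of at least 50% and intervals extended by 1 kb. Replicate numbers are shared between groups, but the labels state no pairing.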

Additional observations from a re-analysis of the deposited data

Results flagged for a closer look

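Among the pathway and neighbouring genes named in the report, 25 had an RS change that differed from their PD change by limma's interaction test, adjusted over all tested genes (adjusted p from 0.000142 to 0.0424). Of these, 22 were more negative in RS and 3 more positive, while over all tested genes 27.3% were called lower and 7.76% higher for this difference. The pathway genes had been named for large RS changes, so this split is partly fixed by that choice. Of the 28 tested neighbours, 10 were lower and 1 higher, counting a clone-named gene that is not among the 25. Values are the log2 change in RS minus that in PD.

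Among neighbours, the difference was -2.13 for Timm21, which lies inside Fbxo15, -1.73 for Zbtb48 and -0.53 for Nol9 beside Tas1r1, and 1.01 for Klhl21. Around Spatc1 it was -1.90 for Tssk5, -0.93 for Oplah, -0.87 for Exosc4, -0.57 for Gpaa1 and -0.54 for Sharpin. Gemin2, next to Sec23a, had -0.56.

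Among connecting piece genes it was -1.80 for Spatc1l, -1.68 for Odf1, -1.52 for Oaz3 and -1.15 for Wdr90, and 0.89 for Poc5. Among COPII genes it was -1.48 for Bet1, -0.97 for Mia2 and 0.60 for Mcfd2. Among ubiquitin ligase genes it was -1.75 for Calr3, -1.42 for Rnf5, -1.39 for Fbxo39, -1.25 for Fbxo24, -1.01 for Skp2 and -0.95 for Ube2g2. The taste transduction gene Itpr3 had -0.68.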

How the results depend on the processing

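Of 1403 alternative values, 1197 were held to be the same as the main value. For single tested genes this means the same direction and call, and for the 5 genes a change within the spread of libraries. For counts of genes it means only a value within a fixed ratio of the main count, which is a looser rule. The RS change of each of the 5 genes was negative under every alternative run. With 2 libraries a group the spread is poorly known, and the RS Setd2KO values of Fbxo15 rest on 37 and 36 reads at the shortest transcript length that gave whole reads.

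With a pseudocount of 0.1 FPKM the RS minus PD difference was -2.77 for Spatc1, -3.09 for Sec23a, -3.70 for Fbxo15 and -3.02 for Tas1r1. With upper-quartile scaling it was -2.55 for Spatc1, -2.32 for Sec23a and -2.26 for Fbxo15, and with quantile normalization -2.32 for Spatc1. With each library left out it ran from -2.76 to -2.57 for Spatc1, -2.63 to -2.34 for Sec23a, -2.48 to -2.33 for Fbxo15, -2.98 to -1.79 for Znrf4 and -2.47 to -1.97 for Tas1r1.

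Without a filter, 4323 genes were called higher in RS and 1518 had a higher difference. Upper-quartile scaling gave 1308 genes lower in PD, 1857 with a higher difference, 30 pathway genes higher in RS and 11 lower in PD, and 0 neighbours higher in PD. Quantile normalization gave 1786 lower and 1506 higher in PD, 2074 with a lower and 2327 with a higher difference, 32 pathway genes higher in RS, 15 lower and 20 higher in PD, and 0 neighbours higher in PD. With only the 2 groups compared, 3 pathway genes were lower in PD and 1 neighbour was higher in PD.

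With each library left out, genes called in RS numbered 1609 to 2761 lower and 1277 to 2962 higher, in PD 384 to 1043 lower and 2109 to 3992 higher, and for the difference 2314 to 3531 lower and 517 to 1586 higher. Pathway genes numbered 17 to 31 lower and 6 to 31 higher in RS, and 4 to 10 lower and 16 to 48 higher in PD. Neighbours numbered 11 to 16 lower and 1 to 2 higher in RS, and 5 to 6 lower and 0 to 5 higher in PD.

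Signs turned for Znrf4 in PD (0.14), which was -0.092 after quantile normalization and -0.46 to 0.74 with a library left out. In RS, Ptprs (-0.020) was 0.010 and Dnajc11 (-0.017) 0.015 with upper-quartile scaling, and 0.011 and 0.0096 after quantile normalization. With a library left out Ptprs ran from -0.11 to 0.069, Dnajc11 from -0.060 to 0.026, Cyc1 from -0.089 to 0.11 and Pnn from -0.29 to 0.20. Of 35 called single genes, 21 kept their call without any 1 library; the cause of lost calls was not tested. Other settings ended the RS calls of Mcfd2 (adjusted p = 0.0706) and Plcb2 (0.0503) with no filter, of Tas1r3 (0.0581) and Safb (0.0599) with upper-quartile scaling and of Safb (0.0733) after quantile normalization. Safb2 was called with only the 2 RS groups fitted (0.03).

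With the replicate number as a block, 2414 genes were lower and 2280 higher in RS, 671 and 3222 in PD, and 2996 and 826 for the difference. Deviations of same-numbered libraries correlated at -0.309 to 0.0682. With 2 libraries in a group, the sign of such a value depends on the numbering. These values therefore cannot show whether libraries of different groups share a batch or an animal.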

Other observations

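Marker lists of somatic and other cells gave these summed levels. Peritubular myoid markers summed to 2.96 to 4.79 FPKM in RS WT and 18.5 to 18.6 FPKM in RS Setd2KO. Of the 8, 5 were tested and all 5 were called higher in RS, beside 20.9% of all tested genes. Acta2 and Myh11 passed the filter only through RS Setd2KO, and Dcn and Col3a1 only through Setd2KO groups, so the filter favoured higher calls. Sertoli markers summed to 5.22 to 7.09 FPKM in RS WT and 11.2 to 13.3 FPKM in RS Setd2KO. Of the 11, 2 were tested and both were called higher. Leydig markers summed to 5.18 to 9.79 and 10.6 to 14.9 FPKM, with 1 of 3 tested genes higher. Macrophage markers summed to 3.23 to 5.56 and 4.14 to 5.95 FPKM, and erythrocyte and endothelial markers to 3.42 to 4.38 and 3.22 to 3.77 FPKM. Spermatogonial markers summed to 11.0 to 13.0 FPKM in RS WT and 10.3 to 10.4 FPKM in RS Setd2KO, and to 26.5 to 28.5 FPKM in PD WT and 46.0 to 58.2 FPKM in PD Setd2KO. No marker of these lists was at 0 in a whole group.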
